A study of Mus musculus with 2 samples.

Results

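The vascular endothelial growth factor (VEGF) and angiopoietin axis was followed through colitis-associated colon tumors (CACs) by single-cell RNA sequencing. Its members were 10 genes, chosen by name from the 32291 genes of the expression table. Of these, 5 encode secreted ligands (Vegfa, Vegfb, Vegfc, Pgf and Angpt2) and 5 encode receptors (Flt1, Kdr, Flt4, Tek and Tie1). CACs were induced in female mice on a C57Bl/6 background with azoxymethane (AOM), a carcinogen, and dextran sodium sulfate (DSS), which injures the lining of the colon. Mice started at an age of 6 to 10 weeks, received 10 mg/kg AOM before the first and the second of 3 DSS cycles (2.5% DSS in the drinking water in the first 2 cycles and 2% in the last), and were killed 110 days after the first AOM injection. Mice of both groups carried floxed Mir34a alleles. Controls were littermates without Cre (Mir34a_F/F in the labels, F/F here), and the other group, Mir34a_Mye_KO in the labels and ΔMye here, also carried LysM-Cre. LysM-Cre is expressed from the Lyz2 locus and is therefore active in macrophages and neutrophils, not in endothelial, epithelial or mast cells as a rule. For each genotype, 6 to 8 CACs of 3 mice were combined into 1 library, so that no value has a biological replicate and no test between genotypes was possible.

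VEGF-A, the product of Vegfa, is induced by hypoxia and drives the growth of blood vessels through the receptor encoded by Kdr (VEGFR2), whereas the receptor encoded by Flt1 (VEGFR1) binds VEGF-A tightly and limits its action, and also binds VEGF-B and placental growth factor, the products of Vegfb and Pgf. VEGF-C, the product of Vegfc, acts through the receptor encoded by Flt4 (VEGFR3) and is best known for the growth of lymphatic vessels. Angiopoietin-2, the product of Angpt2, is released by activated endothelium and binds the receptor encoded by Tek (TIE2), which pairs with the orphan receptor encoded by Tie1.

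The library labelled F/F held 20312 cells, and that labelled ΔMye 18571 cells. They contained 147109016 and 193133086 unique molecular identifiers (UMIs), each of which stands for 1 captured mRNA molecule. The library labelled ΔMye was deeper in 11 of 11 annotated cell types, by 1.11 times in endothelial cells up to 5.69 times in B cells. Here, the level of an mRNA is the sum of its UMIs over the cells of a type per 1000000 UMIs of these cells (CPM), with an exact Poisson interval at 95%. The libraries are compared by the log2 ratio of the levels, ΔMye over F/F, with the exact interval of the split of the UMIs. All intervals cover counting error only. Where 1 library had 0 UMIs, a floor of 3 counts was used to bound the ratio. Pairs of values are given in the order F/F, then ΔMye. In both libraries, the marker genes of each of the 11 cell types had their highest summed level in that type. In addition, cells annotated as fibroblasts held pericyte markers (Rgs5 at 767 and 728 CPM), and basophils held markers of neutrophils at a summed level of 54273 and 43145 CPM and of mast cells at 6121 and 37283 CPM, above their own markers (2838 and 2379 CPM). Epithelial markers were detected in endothelial cells at 2440 and 922 CPM, and these were higher in the library labelled F/F in each non-epithelial type. Endothelial cells of the 2 libraries also differed in the summed markers of neutrophils (525 and 7494 CPM), B cells (2245 and 410 CPM) and erythroid cells (836 and 13 CPM), and the part of such mRNA in the endothelial ratios was not tested. Barcodes shared by both libraries numbered 96, none of them (0) in endothelial cells. In macrophages, Lyz2, the gene that carries the Cre insertion, had 3892 and 1379 UMIs (200 and 41.5 CPM), lower in the library labelled as carrying it. A feature named for Cre and Lyz2 together had 451 and 172 UMIs (23.2 and 5.18 CPM), and a feature named for the Mir34a primary transcript had 133 and 462 UMIs (6.83 and 13.9 CPM), higher in the library labelled as the knockout. A feature named for Cre alone had 0 UMIs in all cells of both libraries. These counts do not all point the same way, and what the named features measure was not tested. Each direction given here rests on the labels.

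The members were searched for the match to the seed of miR-34a, the microRNA encoded by the targeted gene. The seed, bases 2 to 8, is in capitals in the RefSeq sequence of the mature arm, which lies at chr4:150068473-150068494 on the plus strand of GRCm38.p6.
miR-34a-5p: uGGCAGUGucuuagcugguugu
Its perfect DNA match, CACTGCC, was present in the annotated 3′ UTR of 3 of 10 members, Vegfa, Vegfb and Tek, and was not found in that of the other 7. Among all 20746 genes of the table with an annotated 3′ UTR (GENCODE M21), 3131, or 15.1%, held it. The matches are shown in capitals within 30 bases, which lie at chr17:46018059-46018088 (Vegfa, minus strand), chr19:6982733-6982762 (Vegfb, minus strand) and chr4:94874063-94874092 (Tek, plus strand) of mm10.
Vegfa: ccccgcccctctgggCACTGCCtggaagaa
Vegfb: ctcagtctgggaggtCACTGCCccaggacc
Tek: accaagcaagccaccCACTGCCaagagatg
A match of these letters is a description of the sequence, and binding was not measured. In macrophages, where LysM-Cre is active, the log2 ratio of ΔMye over F/F was −0.12 for Vegfa, −0.13 (−0.38 to 0.12) for Vegfb and −0.61 (−1.43 to 0.21) for Tek, the last from 26 and 29 UMIs. The median over all macrophage genes was −0.13, so that Vegfa and Vegfb lay at the background. Tek in macrophages (1.3 and 0.87 CPM) was no higher than in T cells (1.7 and 1.1 CPM). Its ratio was 0.34 after each cell was thinned to 1000 UMIs.

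Vegfa was the ligand detected in every cell type, and macrophages had its highest level in both libraries. Macrophages held 6602 and 10391 UMIs of Vegfa, or 339 (331 to 347) and 313 (307 to 319) CPM. A Vegfa UMI was detected in 66.0% and 57.7% of macrophages, compared with 14.4% and 22.7% of B cells, in which the lowest levels were found. After thinning each cell to 1000 UMIs, these shares were 25.1% and 20.7% in macrophages and 2.36% and 2.60% in B cells. The median depth was 7252 and 11227 UMIs per macrophage and 3664 and 20852 UMIs per B cell. Macrophages made up 10.9% and 14.0% of cells and held 41.2% and 49.2% of all Vegfa UMIs. Epithelial cells, the largest population, held 43.3% and 30.0% at a level of 73.4 and 71.6 CPM. Neutrophils had 122 and 127 CPM, and mast cells 126 and 112 CPM. The interval of macrophages lay apart from that of the next cell type in both libraries, while those of fibroblasts, mast cells and neutrophils overlapped in the library labelled F/F. Endothelial cells, which respond to VEGF-A, were near the low end with 63.5 and 41.5 CPM, above B cells with 25.5 and 14.5 CPM.

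Between the libraries, Vegfa differed little in the cell types that held most of it. The log2 ratio was −0.12 (−0.16 to −0.07) in macrophages, −0.04 (−0.09 to 0.01) in epithelial cells and 0.06 (−0.07 to 0.20) in neutrophils. Averaging over cells in place of summing UMIs gave −0.39 in macrophages, from means of 346 and 265 CPM. Vegfa was lower in the library labelled ΔMye in T cells (62.7 and 45.6 CPM, log2 ratio −0.46) and in B cells (log2 ratio −0.81, −1.09 to −0.53). B cells had the largest difference in depth, and after thinning to 1000 UMIs their ratio was 0.014. In basophils, 17 and 83 UMIs of Vegfa, or 87.1 and 185 CPM, gave a log2 ratio of 1.08 (0.32 to 1.93), in only 48 and 40 cells, which held the neutrophil and mast cell markers given above. In fibroblasts, 39 and 37 UMIs, or 127 and 54.4 CPM, gave a log2 ratio of −1.23 (−1.92 to −0.54). There, 1 cell held 16 of the 39 UMIs, and without the cell with most Vegfa UMIs in each library the ratio was −0.67, with an interval from −1.49 to 0.16, and after thinning it was −0.15.

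Macrophages were further divided by the detection of marker mRNAs, each library apart. Macrophages with an Arg1 UMI, which encodes the arginase of alternatively activated and hypoxic macrophages, had 397 (384 to 409) and 416 (404 to 428) CPM of Vegfa, compared with 276 (265 to 287) and 261 (254 to 268) in those without. The intervals lay apart in both libraries. Macrophages positive for Arg1 and negative for Mrc1, the mannose receptor, had the highest Vegfa level among these subsets with 422 and 447 CPM. Mrc1 alone divided Vegfa weakly, with 337 and 303 CPM in positive and 341 and 331 CPM in negative macrophages. For Spp1, which encodes osteopontin, positive and negative macrophages were alike in the library labelled F/F (339 and 339 CPM), but not in the library labelled ΔMye, where positive macrophages had 355 (346 to 365) and negative ones 273 (265 to 281) CPM. Macrophages with a UMI of Ly6c2, a marker of recent monocyte descent, had less Vegfa than those without in the library labelled F/F (276 and 354 CPM), while the respective values of the other library were 303 and 315 CPM. Division by Nos2, the inducible nitric oxide synthase, gave 324 and 292 CPM in positive and 343 and 318 CPM in negative macrophages of the libraries in turn. Positive cells were deeper than negative cells in 9 of these 10 comparisons, for which reason levels in CPM are compared and not shares of cells.

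Vegfa was higher in cells with more UMIs of genes of the hypoxia response. For this, each cell with at least 2000 UMIs was thinned to 2000 UMIs, and shallower cells were left out. The UMIs of 14 hypoxia genes, which do not include Vegfa, were then counted. Macrophages with 0 to 1, 2 to 3 and 4 or more such UMIs had 253, 310 and 405 CPM of Vegfa in the library labelled F/F, and 216, 277 and 447 CPM in the library labelled ΔMye. Epithelial cells showed the same order, with 61.5, 70.0 and 87.5 CPM in the former and 55.5, 71.2 and 97.6 CPM in the latter. In macrophages and epithelial cells, the intervals of the 3 classes lay apart in both libraries. In neutrophils, levels of 105, 110 and 138 CPM and of 99.2, 129 and 148 CPM were in the same order, but only the lowest class of the library labelled ΔMye lay apart from its neighbour. Among epithelial cells, those with a UMI of Krt20, a keratin of differentiated colonocytes, had more Vegfa (78.9 and 80.2 CPM) than those without (69.3 and 63.4 CPM), and those with a UMI of the proliferation marker Mki67 had less (61.9 and 60.9 CPM) than those without (79.2 and 76.1 CPM).

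**Figure D1:**
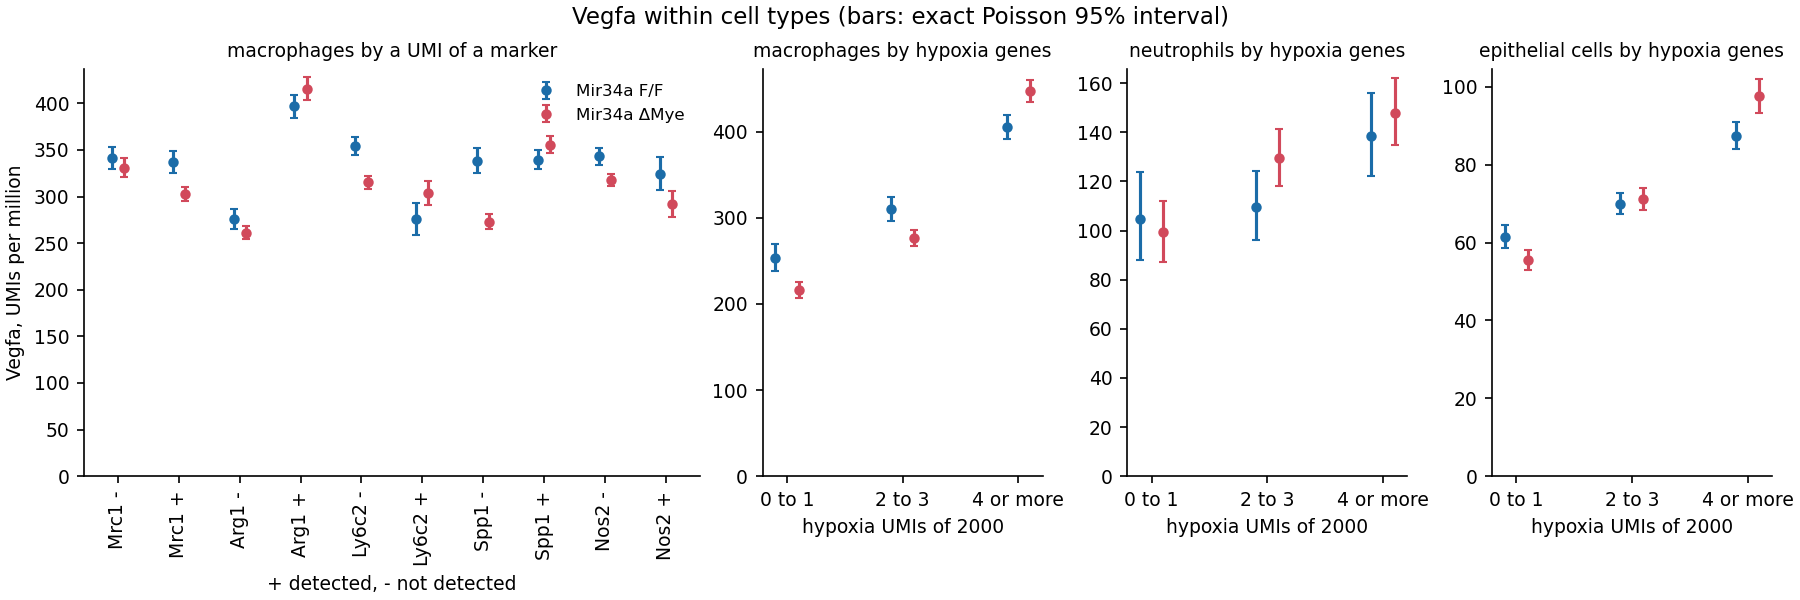
Vegfa level in CPM (y axes) in macrophages divided by detection of a marker mRNA (left, x axis: marker not detected or detected) and in macrophages, neutrophils and epithelial cells divided by hypoxia UMIs among 2000 UMIs of the cell (right, x axes). Points are levels, bars are exact Poisson intervals at 95%, blue is the library labelled F/F and red the library labelled ΔMye; macrophages reach 405 and 447 CPM in the highest hypoxia class.

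Vegfb was low throughout, and no cell type stood apart from the next at the top of its order. In macrophages it reached 11.1 and 10.1 CPM (216 and 337 UMIs), and in mast cells 9.2 and 12.1 CPM. B cells, the type set beside it as background, had 9.8 and 9.2 CPM, with a Vegfb UMI in 6.6% and 15.8% of cells, compared with 8.3% and 10.7% of macrophages. In the library labelled ΔMye, detection of Vegfb in macrophages was thus below that in the deeper B cells. Epithelial cells held 63.8% and 35.8% of all Vegfb UMIs with 7.9 and 5.2 CPM, and the log2 ratio was −0.61 (−0.78 to −0.44). This ratio passed 1.5-fold in only 1 of 7 alternatives and was −0.19 after thinning. In endothelial cells Vegfb rested on 1 and 6 UMIs.

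More UMIs of Vegfc, the lymphangiogenic ligand, were held by mast cells than by any other cell type. Mast cells had 615 and 2456 UMIs of Vegfc, or 189 (174 to 204) and 279 (268 to 291) CPM, and held 42.6% and 65.2% of all its UMIs. A Vegfc UMI was found in 32.4% and 52.4% of mast cells, compared with 1.4% and 5.1% of T cells, and after thinning to 1000 UMIs in 15.6% and 19.9% of mast cells, compared with 0.47% and 0.53% of T cells. Median depth was 2952 and 8456 UMIs in mast cells and 3548 and 8043 UMIs in T cells. Fibroblasts were equal to mast cells in the library labelled F/F with 189 (144 to 245) CPM, and had 113 (89.4 to 142) CPM in the library labelled ΔMye. These rested on 12 and 15 fibroblasts with a UMI. Basophils had 56.3 and 191 CPM, with 11 and 86 UMIs in 7 and 13 cells, and these cells held neutrophil and mast cell markers as given above. Macrophages had only 1.7 and 3.8 CPM. Epithelial cells, at 6.4 and 6.1 CPM, still held 41.7% and 14.4% of Vegfc UMIs.

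Vegfc was higher in the library labelled ΔMye in several cell types. In mast cells the log2 ratio was 0.57 (0.44 to 0.70), just inside the 1.5-fold mark that is used here for a difference. In T cells it was 1.19 (0.76 to 1.64) with 56 and 228 UMIs, in macrophages 1.17 (0.61 to 1.77) with 33 and 127 UMIs, and in basophils 1.76 (0.85 to 2.82). After thinning, the ratio was 0.19 in T cells and 0.76 in macrophages. These 3 types moved with the Vegfc UMIs of mast cells, which numbered 615 and 2456, and the part of mast cell mRNA in these ratios was not tested. The ratio in epithelial cells was −0.06 (−0.23 to 0.11). In endothelial cells, 22 and 113 UMIs, or 32.5 (20.4 to 49.2) and 146 (121 to 176) CPM, gave a log2 ratio of 2.17 (1.5 to 2.90). These UMIs came from 12 and 23 endothelial cells, and 1 cell held 33 of the 113. Without the highest cell of each library the ratio was 1.98, averaged over cells 1.23 and after thinning 0.48. Fibroblasts differed in the other direction with a log2 ratio of −0.74 (−1.25 to −0.22), and their highest cells held 14 of 58 and 24 of 77 UMIs. This ratio passed 1.5-fold in 4 of 7 alternatives and was 0.85 after thinning, so that no direction can be given.

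Mast cells also had the highest level of Angpt1, which encodes the agonist of TIE2, with 167 and 242 CPM. Both ligands were detected together in 103 of 732 (14.1%) and 248 of 785 (31.6%) mast cells. Vegfc alone was found in 18.3% and 20.8%, and Angpt1 alone in 19.4% and 27.0% of mast cells, and neither was found in 48.2% and 20.6%. Median depth was 2952 and 8456 UMIs, so that the difference of these shares between the libraries cannot be told apart from depth. No background share is given for them.

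The level of Pgf, which binds VEGFR1, stood apart in endothelial cells in only 1 library. In the library labelled F/F it was highest in endothelial cells, with 118 (93.7 to 147) CPM, followed by macrophages with 21.4 (19.4 to 23.5) CPM. In the library labelled ΔMye, macrophages had 31.6 (29.7 to 33.6) and endothelial cells 25.9 (15.8 to 40.0) CPM, with overlapping intervals. Most Pgf UMIs lay outside endothelial cells, with 1233 and 571 in epithelial cells and 416 and 1050 in macrophages. Endothelial cells held 80 and 20 Pgf UMIs, from 22 of 116 and 5 of 107 cells, and the log2 ratio was −2.19 (−2.97 to −1.47). The ratio stayed between −2.65 and −1.93 in 7 alternatives, which included leaving out the cell with most UMIs, averaging over cells and thinning. The share of endothelial cells with a Pgf UMI was 19.0% and 4.7%, compared with 2.2% and 2.8% of T cells.

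In macrophages, Pgf had 416 and 1050 UMIs and a log2 ratio of 0.56 (0.40 to 0.73), just inside 1.5-fold. A Pgf UMI was detected in 9.0% and 11.7% of macrophages, and after thinning in 1.2% and 2.2%, compared with 0.70% and 0.38% of T cells. Macrophages held 21.6% and 54.2% of all Pgf UMIs, and epithelial cells held 64.0% and 29.5%. Epithelial cells had 13.1 and 6.4 CPM, a log2 ratio of −1.02 (−1.17 to −0.88), which was −0.32 in cells that passed a stricter filter (at least 500 different mRNAs and under 10% mitochondrial content) and −0.33 after thinning. Pgf was also lower in T cells (5.7 and 3.1 CPM, log2 ratio −0.88) and in mast cells (8.0 and 2.4 CPM, log2 ratio −1.74). The summed epithelial markers were lower there too, with 2030 and 1075 CPM in T cells and 1845 and 954 CPM in mast cells. The part of epithelial mRNA in these ratios was not tested. Within macrophages, Pgf was higher in Mrc1-positive cells (28.3 and 37.3 CPM) than in Mrc1-negative cells (14.3 and 21.5 CPM), and lower in Spp1-positive cells (16.9 and 24.0 CPM) than in Spp1-negative cells (29.0 and 38.7 CPM), so that it was distributed differently from Vegfa. Within epithelial cells, those with a UMI of the stem cell marker Lgr5 had more Pgf (21 and 12.2 CPM) than those without (9.9 and 4.8 CPM). Lgr5-positive cells were deeper, with a median of 10859 and 9168 UMIs, compared with 4698 and 6031 UMIs. The epithelial Pgf level was lower in the library labelled ΔMye in both classes.

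Angpt2 was highest in endothelial cells with 69.4 (51.0 to 92.4) and 44.1 (30.5 to 61.6) CPM, from 47 and 34 UMIs in 20 and 15 cells. Levels in the other 10 cell types were between 0 and 10.3 CPM. The log2 ratio in endothelial cells was −0.66, with an interval from −1.34 to 0.01, and after thinning it was 0.80, so that no direction can be given. Most Angpt2 UMIs (73.6% and 55.4%) were nevertheless held by epithelial cells, at 8.6 and 5.4 CPM with a log2 ratio of −0.68 (−0.84 to −0.51), which was −0.12 with the stricter filter. An Angpt2 UMI was found in 5.2% and 3.9% of epithelial cells, compared with 2.1% and 3.7% of T cells at a median depth of 5316 and 6623 against 3548 and 8043 UMIs, so that the epithelial share was close to this background in the library labelled ΔMye. However, Lgr5-positive epithelial cells had 14.5 and 11.7 CPM of Angpt2, compared with 6.2 and 3.6 in the shallower Lgr5-negative cells, with intervals apart in both libraries. Within endothelial cells, those with a UMI of Esm1 or Apln, which are genes of sprouting tip cells (23 and 17 cells), had 145 (99.1 to 205) and 93.0 (52.1 to 153) CPM of Angpt2, compared with 32.9 (18.4 to 54.3) and 31.1 (18.7 to 48.6) in the others. The intervals of these subsets lay apart in both libraries, although in the library labelled ΔMye only 3 of the 17 cells held the 15 Angpt2 UMIs. Cells with Esm1 or Apln were also deeper, with a median of 6560 and 8258 UMIs, compared with 2864 and 3892 UMIs.

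**Figure D2:**
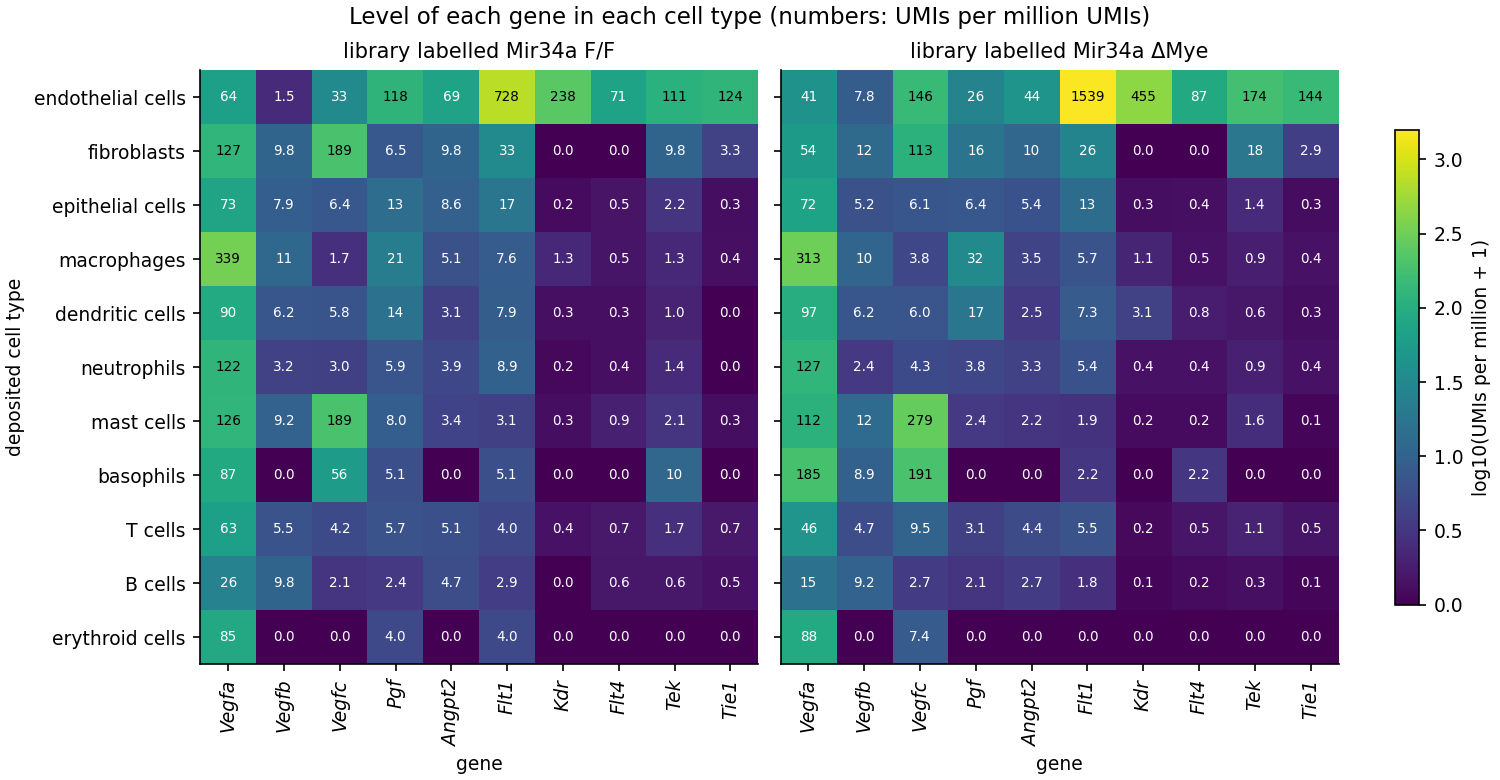
Level of the 10 genes (x axes) in the 11 deposited cell types (y axis), for the library labelled F/F on the left and ΔMye on the right. Colors show log10 of CPM plus 1, and the numbers are CPM; the 5 receptors are highest in endothelial cells, whereas Vegfa is highest in macrophages (339 and 313) and Vegfc in mast cells of the library labelled ΔMye (279).

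All 5 receptors were highest in endothelial cells in both libraries and over 2-fold above the next cell type, as was Angpt2. These were 6 of 10 members, whereas 1.94% of 22600 genes met this rule. Because cell types were defined by clustering the same cells, this is a description of the annotated endothelial cells and not a test. The 223 endothelial cells (116 and 107) had 676757 and 771461 UMIs, and the deepest 12 and 11 of them held 32.8% and 30.8% of these.

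Flt1, the VEGF-A trap, had 493 and 1187 UMIs in endothelial cells, or 728 (666 to 796) and 1539 (1452 to 1629) CPM. It was detected in 73.3% and 66.4% of endothelial cells, compared with 1.5% and 2.9% of T cells (median depth 3964 and 4407 against 3548 and 8043 UMIs), and after thinning to 1000 UMIs in 45.0% and 42.5% of endothelial cells, compared with 0.50% and 0.45% of T cells. Kdr, the main signaling receptor of VEGF-A, had 161 and 351 UMIs, or 238 (203 to 278) and 455 (409 to 505) CPM, and was detected in 54.3% and 57.9% of endothelial cells and in 0.19% and 0.19% of T cells. Kdr was the member most restricted to endothelial cells by the UMIs they held, 73.9% and 78.0%. Outside of endothelial cells its levels were between 0 and 3.1 CPM.

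Flt4, the VEGF-C receptor, had 48 and 67 UMIs in endothelial cells, or 70.9 (52.3 to 94.0) and 86.8 (67.3 to 110) CPM, and was detected in 22 and 27 cells. Tek had 75 and 134 UMIs, or 111 (87.2 to 139) and 174 (146 to 206) CPM, and was detected in 37.1% and 44.9% of endothelial cells. Tie1 had 84 and 111 UMIs, or 124 (99.0 to 154) and 144 (118 to 173) CPM, and was detected in 38.8% and 39.3%. In T cells, Flt4, Tek and Tie1 were found in 0.29% to 0.98% of cells. Endothelial cells held 39.0% and 46.2% of Flt4, 21.1% and 37.0% of Tek and 63.2% and 63.8% of Tie1 UMIs.

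Epithelial cells held 66.7% and 40.0% of Flt1 and 57.5% and 35.1% of Tek UMIs, and made up 57.2% and 53.1% of all cells. Their Flt1 level of 17.1 and 12.6 CPM was above that of T cells (4.0 and 5.5 CPM), and a UMI was found in 5.4% and 4.9% of epithelial cells. UMIs were also set against those of another endothelial gene in the same cells. Per UMI of Cdh5, which encodes VE-cadherin, there were 1.40 and 3.01 Flt1 UMIs in endothelial cells, 8.98 and 11.4 in epithelial cells, 5.29 and 4 in macrophages, and 4.42 and 5.12 in T cells. For Angpt2 these ratios were 0.134 and 0.0863 in endothelial cells, 4.51 and 4.87 in epithelial cells, 3.57 and 2.47 in macrophages, and 5.67 and 4.04 in T cells. For Kdr they were 0.459 and 0.891 in endothelial cells, 0.122 and 0.286 in epithelial cells, 0.929 and 0.809 in macrophages, and 0.5 and 0.192 in T cells. The ratios of Flt1 and Angpt2 were thus above the endothelial ones in all 3 other cell types and not in epithelial cells alone, and those in T cells rested on 12 and 26 UMIs of Cdh5. The part of free RNA in these values was not tested. A single epithelial cell held up to 70 and 67 Flt1 UMIs. Lgr5-positive epithelial cells had 26.8 and 22 CPM of Flt1, compared with 13.3 and 9.9 in the shallower Lgr5-negative cells, again with intervals apart.

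**Figure D3:**
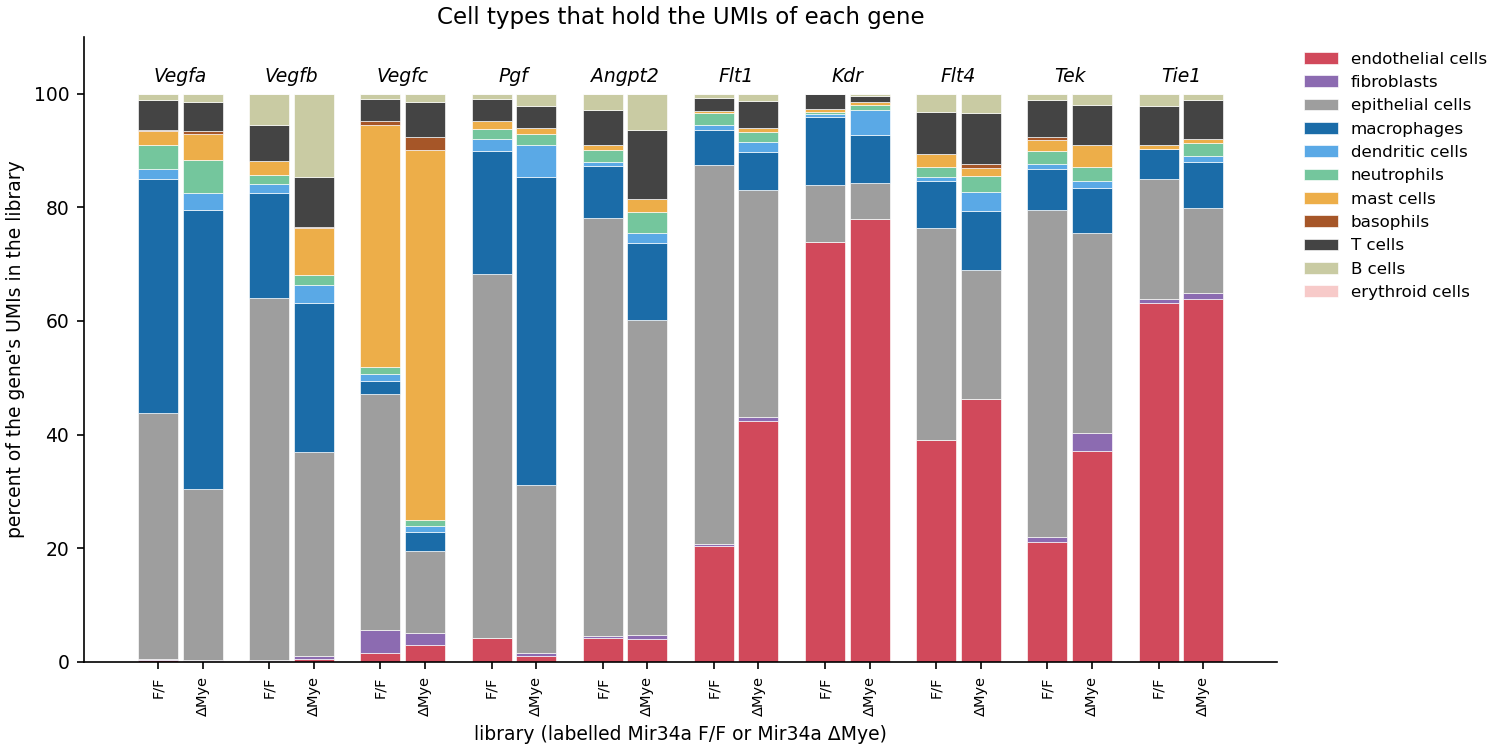
Percent of the UMIs of each gene (y axis) held by each of the 11 cell types (colors), with 1 bar per gene and library (x axis). Kdr and Tie1 UMIs were mostly held by endothelial cells (73.9% and 78.0%, 63.2% and 63.8%), Vegfc UMIs by mast cells in the library labelled ΔMye (65.2%), and Angpt2 UMIs by epithelial cells (73.6% and 55.4%).

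The 5 receptors and Angpt2 had their highest level in endothelial cells, and the promoters of 3 of these receptors are shown because they held a motif searched for. Letters bound by ETS factors, which act in endothelial genes, were searched in only 2 forms, CAGGAA and CCGGAA, on both strands. These cannot both match at the same position, and other forms of the ETS core letters were not searched. In the 250 bases before the RefSeq start (GRCm38.p6), Kdr held CCGGAA once, Tek held CAGGAA at 2 positions and Tie1 held CAGGAA once, and neither was found in Flt1 or Flt4, while Angpt2 was not searched. Vegfa, which was highest in macrophages, also held CAGGAA once in 1 of its 2 promoters, and neither was found in those of Vegfb, Vegfc and Pgf. Among 32851 promoters of this length, 25.7% held CAGGAA, 12% CCGGAA and 35.1% at least 1 of them. The promoters lie at chr5:75978456-75978705 (Kdr, minus strand), chr4:94739039-94739288 (Tek, plus strand) and chr4:118489850-118490099 (Tie1, minus strand), and capitals mark the motifs, which are all on the reverse strand (TTCCGG or TTCCTG).
Kdr: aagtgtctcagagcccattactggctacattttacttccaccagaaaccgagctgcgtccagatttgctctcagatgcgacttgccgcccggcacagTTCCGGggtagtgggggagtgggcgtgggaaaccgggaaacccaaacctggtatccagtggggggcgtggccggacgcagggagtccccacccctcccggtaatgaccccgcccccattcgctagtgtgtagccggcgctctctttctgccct
Tek: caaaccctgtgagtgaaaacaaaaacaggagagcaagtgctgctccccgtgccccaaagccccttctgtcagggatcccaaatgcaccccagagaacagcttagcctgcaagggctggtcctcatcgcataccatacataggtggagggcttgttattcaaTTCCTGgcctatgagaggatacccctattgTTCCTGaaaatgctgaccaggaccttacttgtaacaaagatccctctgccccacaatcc
Tie1: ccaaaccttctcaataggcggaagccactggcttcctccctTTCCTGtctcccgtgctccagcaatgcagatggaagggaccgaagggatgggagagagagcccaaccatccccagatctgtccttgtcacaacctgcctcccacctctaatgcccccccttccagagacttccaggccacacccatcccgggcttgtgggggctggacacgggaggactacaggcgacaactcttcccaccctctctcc
These letters are common in promoters, and factor binding was not measured.

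Endothelial cells without a receptor UMI were the shallowest. Of 116 and 107 cells, 11 and 21 had no UMI of any of the 5 receptors, at a median depth of 1256 and 1813 UMIs, and 2 and 9 had UMIs of all of them. Cells with 3 receptors had a median of 6448 and 4334 UMIs, those with 4 had 4787 and 10302, and those with all 5 had 2516.5 and 14782. Depth thus did not rise steadily with the number of receptors. Given the low depth of cells without any, a receptor without a UMI cannot be read as absent. Flt1 and Kdr were detected together in 53 and 50 cells, Flt1 without Kdr in 32 and 21 cells, and Kdr without Flt1 in 10 and 12 cells. Tek and Tie1 were detected together in 22 and 32 cells. A division by 5 lymphatic genes (Prox1, Lyve1, Pdpn, Ccl21a and Mmrn1) separated the VEGF receptors. At least 2 of these genes were detected in 17 and 11 cells, exactly 1 in 29 and 31 cells, and none (0) in 70 and 65 cells. Cells with at least 2 lymphatic genes had 398 (277 to 553) and 433 (315 to 582) CPM of Flt4, compared with 27.8 (13.3 to 51.1) and 38.2 (21.4 to 63.0) in cells without a lymphatic gene. A Flt4 UMI was found in 64.7% and 81.8% of the former and in 11.4% and 18.5% of the latter. Of the 5 genes, Prox1 was higher in epithelial cells (179 and 133 CPM) than in endothelial cells (136 and 105 CPM), and Pdpn was highest in fibroblasts (232 and 322 CPM). With only Lyve1, Ccl21a and Mmrn1, a division chosen after seeing the data, at least 2 were detected in 15 and 7 cells and none (0) in 90 and 89 cells. Flt4 was then found in 66.7% and 100% of the former and in 11.1% and 19.1% of the latter.

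By the share of cells with a UMI, Flt1 was distributed in the opposite way. It was detected in 2 of 17 (11.8%) and 1 of 11 (9.1%) cells with at least 2 lymphatic genes, compared with 81.4% and 69.2% of cells without a lymphatic gene. The only such cell in the library labelled ΔMye, however, held 199 Flt1 UMIs, which were 16.8% of all endothelial Flt1 UMIs of this library. The Flt1 level was thus 45.5 and 1960 CPM in cells with at least 2 lymphatic genes, compared with 915 and 1458 CPM in cells without. In the library labelled ΔMye, level and share were in opposite order. Without Prox1 and Pdpn in the list, Flt1 was detected in 1 of 15 and 0 of 7 cells with at least 2 lymphatic genes (the exact interval of the latter reaches 41.0%), compared with 84.4% and 74.2% of cells without. Kdr was found in both, in 41.2% and 63.6% of cells with at least 2 lymphatic genes and in 55.7% and 53.8% of cells without. Tek (35.3% and 45.5%, compared with 38.6% and 41.5%) and Tie1 (47.1% and 45.5%, compared with 32.9% and 30.8%) were also detected in both, with overlapping intervals. Angpt2 was detected in 6 of 17 and 5 of 11 cells with at least 2 lymphatic genes and in 4 of 70 and 6 of 65 cells without. Median depth was 2864 and 5753 UMIs in the former and 3547 and 3360 UMIs in the latter cells. In the deeper cells with 1 lymphatic gene (median 6375 and 6754 UMIs), Angpt2 was detected in 10 of 29 and 4 of 31. Without Prox1 and Pdpn, Angpt2 was detected in 4 of 15 and 5 of 7 cells with at least 2 genes. It was then found in 7 of 11 and 1 of 11 cells with 1 gene, and in 9 of 90 and 9 of 89 without. The 2 libraries thus differed in order by this list.

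**Figure D4:**
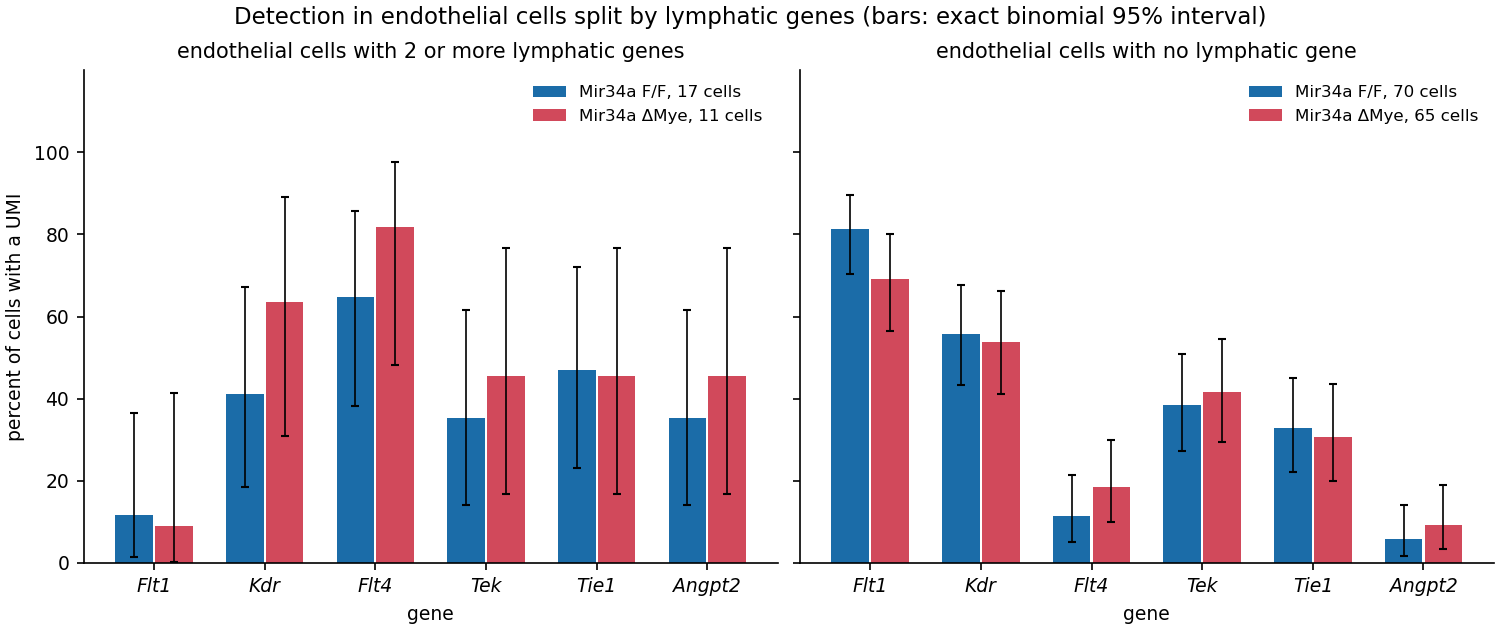
Percent of endothelial cells with a UMI of 6 members (y axis), among cells with 2 or more of 5 lymphatic genes (left, 17 and 11 cells) and cells with none of them (right, 70 and 65 cells), in blue for the library labelled F/F and in red for ΔMye. Bars on the columns are exact binomial intervals at 95%; Flt4 was detected in 64.7% and 81.8% on the left and in 11.4% and 18.5% on the right, and Flt1 in 11.8% and 9.1% on the left and in 81.4% and 69.2% on the right, while the 29 and 31 cells with 1 lymphatic gene are not drawn.

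Comparison of the libraries within endothelial cells gave higher levels of 3 receptors in the library labelled ΔMye by the sums of UMIs. The log2 ratio was 1.08 (0.93 to 1.23) for Flt1, 0.94 (0.66 to 1.21) for Kdr and 0.65 (0.23 to 1.08) for Tek. The ratios of Flt4 (0.29, −0.26 to 0.86) and Tie1 (0.21, −0.21 to 0.64) had intervals that included 0. The size of the 3 higher ratios depended on how cells were weighted, and that of Tek turned after thinning, so that no direction can be given for Tek. For Flt1, the cell with most UMIs held 44 of 493 and 199 of 1187 UMIs, and the ratio was 0.94 without these cells. When each cell had equal weight, the ratios were 0.25 for Flt1, 0.42 for Kdr and 0.13 for Tek, all below 1.5-fold, and after thinning to 1000 UMIs they were 0.27, 0.34 and −0.10. The share of endothelial cells with a Flt1 UMI was not higher in the library labelled ΔMye (66.4%, compared with 73.3%). Among cells without a lymphatic gene, Flt1 had 915 (819 to 1019) and 1458 (1341 to 1583) CPM, and 1 cell held 101 of the 573 UMIs of the library labelled ΔMye.

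Of 9 members with at least 20 UMIs over both libraries in endothelial cells, 4 were at least 1.5-fold higher (Vegfc, Flt1, Kdr and Tek) and 3 at least 1.5-fold lower (Pgf, Vegfa and Angpt2) in the library labelled ΔMye. The intervals of Vegfa and Angpt2 included 0. The background was high, as 33.8% of 8484 genes passed 1.5-fold in endothelial cells, 1157 higher and 1710 lower.

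**Figure D5:**
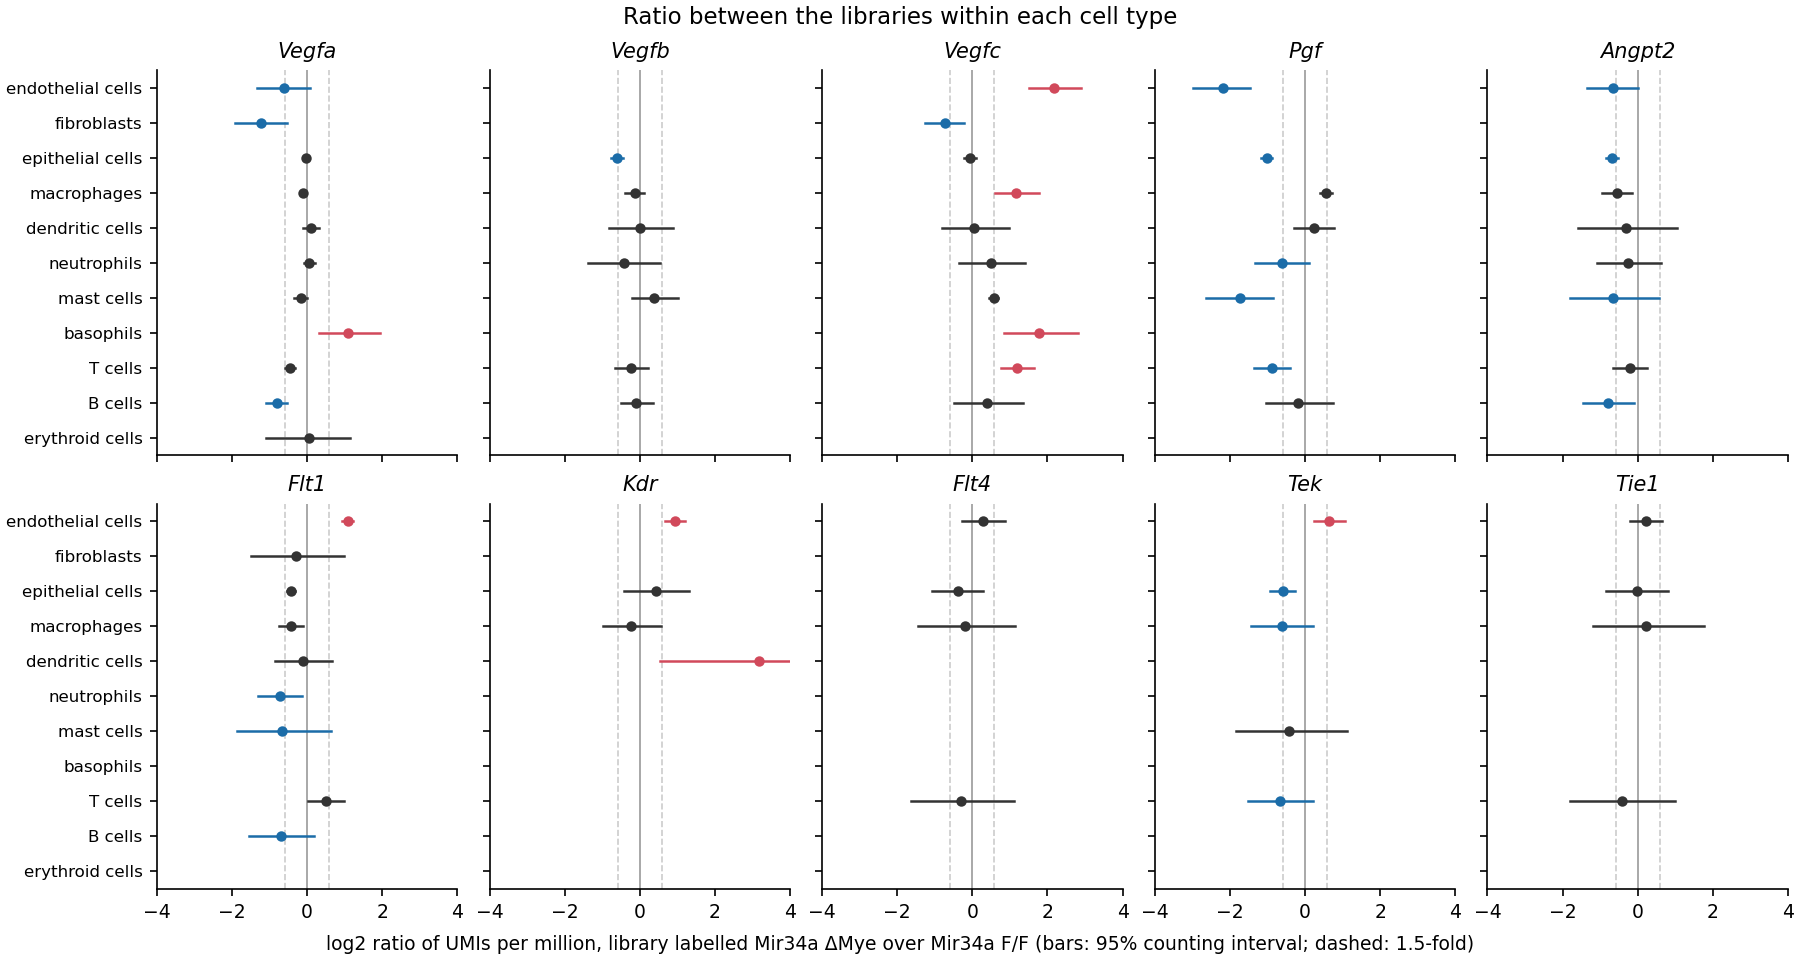
Log2 ratio of CPM between the libraries, ΔMye over F/F (x axes), for each gene (panels) and cell type (y axes) with at least 20 UMIs in both libraries together. Points are ratios, bars are exact intervals at 95% of the UMI split, dashed lines mark 1.5-fold, and red and blue are ratios beyond it; Pgf in endothelial cells (−2.19) and Vegfc in endothelial cells (2.17) lie farthest out except for Kdr in dendritic cells, and the bar of Kdr in dendritic cells runs on to 8.55.

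Over all 110 pairs of a member and a cell type, 70 had at least 20 UMIs, and 29 of these passed 1.5-fold, 9 higher and 20 lower in the library labelled ΔMye. The interval excluded 0 in 21 of the 29. Among all genes, too, more passed 1.5-fold downward than upward in every cell type. Examples are B cells (4752 lower, 646 higher), T cells (2757 and 660), macrophages (2497 and 1001) and neutrophils (3189 and 901). The excess of lower pairs is thus not particular to the members. Another 40 pairs had fewer UMIs, among them 11 without a UMI in either library. By cell type, the number past 1.5-fold was 3 of 6 in B cells (37.8% of all genes), 3 of 9 in T cells (20.9%), 2 of 2 in basophils (37.9%), 1 of 7 in dendritic cells (20.1%), 4 of 10 in epithelial cells (22.5%), 2 of 3 in fibroblasts (34.3%), 2 of 10 in macrophages (20.9%), 3 of 7 in mast cells (22.3%), 2 of 6 in neutrophils (30.2%) and 0 of 1 in erythroid cells (38%). In macrophages and neutrophils, in which Cre is active, the members were thus near the background. The median log2 ratio of the members was −0.16 in macrophages and −0.34 in neutrophils, beside −0.13 and −0.25 for all genes. All 4 epithelial calls (Vegfb, Pgf, Angpt2 and Tek) were lower in the library labelled ΔMye, as were 3765 of the 4669 epithelial genes past 1.5-fold, and the median was −0.41 for 10 members and −0.22 for all genes. Of 7 alternatives, 1 kept the epithelial difference past 1.5-fold for Vegfb, 4 for Pgf, 3 for Angpt2 and 1 for Tek, with ratios as small as −0.19 for Vegfb, −0.32 for Pgf and −0.12 for Angpt2, and of 0.12 for Tek after thinning. Kdr in dendritic cells had the largest ratio, 3.18 (0.53 to 8.55), from 1 UMI and from 20 UMIs in 13 cells.

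Other genes of the axis were described from a list of 6 further ligands and co-receptors (Vegfd, Angpt1, Angpt4, Nrp1, Nrp2 and Ptprb). Ratios of the listed genes, here and in the lists that follow, are by the sums of UMIs, and no alternatives are given for them. In endothelial cells, the higher ratios of Flt1, Kdr and Tek fell below 1.5-fold when each cell had equal weight. Of 3 that could be counted in endothelial cells, 2 were at least 1.5-fold higher in the library labelled ΔMye and none (0) lower, beside 33.8% of all endothelial genes past 1.5-fold in either direction. Ptprb, the phosphatase that restrains TIE2, had 448 and 853 CPM there with a log2 ratio of 0.93 (0.73 to 1.13), and Nrp2, a co-receptor for VEGF-C, had 186 and 369 CPM with a log2 ratio of 0.99 (0.68 to 1.30). Nrp1, a co-receptor for VEGF-A, had 173 and 231 CPM in endothelial cells (log2 ratio 0.42), and in macrophages 56.9 and 89.1 CPM (log2 ratio 0.65, 0.55 to 0.75). Angpt1 in mast cells had a log2 ratio of 0.53 (0.40 to 0.67), close to that of Vegfc. Vegfd rested on 149 and 149 UMIs in all cells, and Angpt4 on 29 and 39.

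Of 16 genes of endothelial sprouting and identity, 13 were highest in endothelial cells by the same rule as the receptors. In endothelial cells, 3 of 16 passed 1.5-fold upward and 2 downward, or 5 of 16 in all, close to the share of 33.8% among all genes. The transcription factors Sox17 and Sox18 had log2 ratios of 0.70 and 0.99, and Nos3, the endothelial nitric oxide synthase, had 48.8 and 115 CPM (log2 ratio 1.24, 0.65 to 1.87). Apln, a ligand of tip cells, had 118 and 15.6 CPM (log2 ratio −2.93, −3.94 to −2.04), from 80 and 12 UMIs in 18 and 6 cells. In the library labelled F/F, 1 cell held 28 of the 80 Apln UMIs and another cell held 22. Cxcr4 had 103 and 38.9 CPM (log2 ratio −1.41). The tip cell gene Esm1 had 79 and 79 UMIs with a log2 ratio of −0.19 (−0.66 to 0.28). Apln and Pgf were thus lower by the sums of UMIs, whereas Angpt2 and Esm1 had intervals that included 0. Of the 5 lymphatic genes, 3 were highest in endothelial cells by the same rule, and none (0) passed 1.5-fold in endothelial cells.

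Of 14 hypoxia genes measured in macrophages, 3 were at least 1.5-fold lower in the library labelled ΔMye and none (0) higher, near the 20.9% of all macrophage genes past 1.5-fold, of which 2497 were lower and 1001 higher. These were Egln3, an oxygen sensor (log2 ratio −0.95), Bnip3, a mitophagy receptor (−1.02), and Ankrd37 (−0.75). In epithelial cells, Ndrg1 (−0.72) and Bnip3 (−0.63) were lower and none (0) higher, beside 22.5% of all genes past 1.5-fold, and in neutrophils none (0) passed, beside 30.2%. In endothelial cells, 1 of 13 was higher, Epas1, which encodes a hypoxia-inducible factor (257 and 542 CPM, log2 ratio 1.08), and 4 were lower, near the 33.8% of all endothelial genes past 1.5-fold. Vegfa, like most of these genes, stayed within 1.5-fold in macrophages, epithelial cells and neutrophils, and the median log2 ratio of the hypoxia genes in macrophages was −0.09, beside −0.12 for Vegfa. Among 5 angiogenesis inhibitors, 3 were lower in epithelial cells, where 22.5% of all genes passed 1.5-fold, 3765 lower and 904 higher. In macrophages, 1 of 5 was higher and none (0) lower. In neutrophils 3 of 4 were lower (30.2% of all genes past 1.5-fold), in mast cells 3 of 4 (22.3%) and in fibroblasts 2 of 3 (34.3%). In endothelial cells 1 of 4 was lower (33.8%), and none (0) was higher in these 4 types. Thbs1, which encodes thrombospondin-1, had 963 and 331 CPM in endothelial cells (log2 ratio −1.54, −1.76 to −1.33) and 234 and 124 CPM in epithelial cells (log2 ratio −0.92, −0.95 to −0.89). Thbs1 was highest in neutrophils (1571 and 1477 CPM) and macrophages (1571 and 1274 CPM), where it stayed within 1.5-fold.

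Genes with the most similar pattern were sought by Pearson correlation of log2 levels over the 22 combinations of cell type and library, among 11906 genes. These points share libraries and differ in depth, and the values are a description. Most like Vegfa were Cdkn1a (r = 0.86), Pla2g7 (0.85) and Srxn1 (0.84). Most like Vegfc were Prkg1 (0.92), Fgfr1 (0.91) and Meis1 (0.89), and most like Pgf were Pea15a (0.90), Scarb1 (0.85) and Plekha1 (0.84). For the receptors the correlations were higher, as with Vwa1 for Flt1 (0.96), Unc45b for Kdr (0.98), Robo4 for Flt4 (0.97), Fzd4 for Tek (0.98) and Lyve1 for Tie1 (0.99). These rest mainly on the endothelial points, in which all receptors were highest. For Kdr these were 238 and 455 CPM, compared with at most 3.1 CPM elsewhere. High values are therefore reached by genes restricted to endothelial cells in general. Angpt2 was most like Il20rb (0.93), and Vegfb most like Spg20 (0.88).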

How the data were processed

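CACs were dissociated, dead cells and red cells were removed, and 30000 cells per genotype were loaded for 3′ single-cell sequencing. Reads were aligned to mm10 with Cell Ranger 7.2.0, per the authors. Whether intronic reads were counted is not given in the sources used here. The authors deposited natural log values, ln(1 + UMIs per 10000 UMIs of the cell), with cell type annotation for 38883 cells. Whole UMIs were recovered from these for all cells, with a largest deviation of 1.5e-10 from a whole number. The stated filter (over 200 mRNAs, under 25% mitochondrial content) left 17842 and 14441 of the deposited cells. All deposited cells were used, and doublet removal was left as the authors made it with Scrublet. UMIs were summed per cell type and library. Intervals were exact (Poisson for levels, binomial for shares and ratios). A difference was counted at 1.5-fold or more among genes with at least 20 UMIs over both libraries. With 1 library per genotype there was no test. Total depth was 147109016 and 193133086 UMIs. The members and lists were chosen with earlier results of these data known. Named genes were the 10 members, the 3 genes most like each member with 50 UMIs or more in each library among genes with at least 10 UMIs per 1000000 (CPM) in a cell type of both libraries, and the genes of 5 lists. Scripts were tested on simulated data. Alternatives were means over cells, cells thinned to 1000 UMIs, stricter and stated cell filters, another denominator, a pseudocount of 1 CPM, a minimum of 50 UMIs and a 4-fold rule. Python 3.11.15, numpy 2.4.6, scipy 1.17.1, pandas 2.3.3 and matplotlib 3.10.9 were used.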

Additional observations from a re-analysis of the deposited data

Results flagged for a closer look

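For 4 members, the log2 ratio between the libraries (ΔMye over F/F) passed 1.5-fold with an interval above 0 in some cell types and below 0 in others. The differences between cell types were not tested, and there is 1 library per genotype. Vegfa was 1.08 in basophils, −0.81 in B cells and −1.23 in fibroblasts. Vegfc was 2.17 in endothelial cells, 1.76 in basophils, 1.19 in T cells and 1.17 in macrophages, but −0.74 in fibroblasts. Flt1 was 1.08 in endothelial cells and −0.73 in neutrophils, and Tek was 0.65 in endothelial cells and −0.59 in epithelial cells. After thinning to 1000 UMIs, several of these ratios were near 0 or turned. Vegfa was then 0.75 in basophils, 0.014 in B cells and −0.15 in fibroblasts. Vegfc was 0.48 in endothelial cells, 0.19 in T cells, 0.76 in macrophages and 0.85 in fibroblasts, and could not be computed in basophils. Flt1 was 0.27 in endothelial cells and 1.15 in neutrophils, and Tek was −0.10 in endothelial cells and 0.12 in epithelial cells. Thus, for none of the 4 members did the ratios past 1.5-fold in opposite directions hold after thinning.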

How the results depend on the processing

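The 6 members highest in endothelial cells were the same 6 under means over cells, a 4-fold rule and a stricter cell filter. The number of pairs past 1.5-fold was 29, compared with 18 when each cell had equal weight, 24 with a minimum of 50 UMIs and 22 with stricter cells. Among these 29, thinning to 1000 UMIs turned the log2 ratio of Vegfa in B cells (0.014) and endothelial cells (0.33), Vegfc in fibroblasts (0.85), Angpt2 in endothelial cells (0.80), Flt1 in B cells (0.014), mast cells (0.81) and neutrophils (1.15), and Tek in endothelial cells (−0.10), epithelial cells (0.12) and macrophages (0.34). Means over cells turned 2 of the 29, Angpt2 in B cells (0.072) and Flt1 in mast cells (0.48). The cause was not tested. Thinning leaves fewer UMIs, gives each kept cell the same weight and leaves out cells with under 1000 UMIs. Of the 29, none (0) turned under the other 5 alternatives, among them leaving out the cell with most UMIs, which was chosen after seeing the data. Over all pairs with at least 20 UMIs, including those within 1.5-fold, the sign was the same for 43 of 66 after thinning, 54 of 70 with means over cells, 64 of 70 with stricter cells, 67 of 70 with the stated filter, 65 of 70 with the other denominator, 70 of 70 with the pseudocount and 66 of 69 without the highest cells. Lower Pgf in endothelial cells, T cells and mast cells and higher Vegfa in basophils and Vegfc in macrophages passed 1.5-fold in 7 of 7 alternatives. The part of mRNA from other cell types in these ratios was not tested. No paired analysis was possible because each genotype had 1 library. The small numbers of endothelial cells (116 and 107), fibroblasts (57 and 60) and basophils (48 and 40) limit what can be seen in these types.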
